A study of Rattus norvegicus with 6 samples.

Results

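The regulators of G protein signalling (RGS proteins) were followed through transplanted rat hearts as 10 genes, Rgs1, Rgs2, Rgs3, Rgs4, Rgs5, Rgs6, Rgs10, Rgs14, Rgs16 and Rgs18. They were found by symbol among the 22250 genes of the deposited expression table, which holds 20 RGS genes in all. All 10 passed the filter on low counts that left 13784 genes to test. The list was drawn up with these hearts' values known, so the aged and young values of the 10 genes are given as a description with no test. RNA-Seq was performed on left ventricular myocardium of 6 donor hearts, 3 from rats of 10 weeks (young) and 3 from rats of 1 year (aged), taken on postoperative day 1 after heterotopic transplantation. The rats were Sprague-Dawley and labelled WT in both groups, and they differed in donor age alone as far as the labels say. Donor hearts had been stored cold in University of Wisconsin solution and were then transplanted into young rats. A heterotopic graft is perfused by the recipient but carries little pumping load. No heart without transplantation was analysed here, so a difference by age cannot be told apart from a difference in the response to storage and surgery. Hearts are named here by group and animal number, young 3, 13 and 15 and aged 3, 4 and 7.

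A heterotrimeric G protein is switched on when a receptor makes its alpha subunit exchange GDP for GTP, and it switches off when the alpha subunit hydrolyses that GTP. RGS proteins bind the active alpha subunit, mostly of the Gi and Gq classes, and speed the hydrolysis, so that signals of receptors for catecholamines, endothelin, angiotensin, acetylcholine and chemokines end sooner. The R4 subfamily (Rgs1, Rgs2, Rgs3, Rgs4, Rgs5, Rgs16 and Rgs18 here) consists mostly of small proteins with little beyond the RGS domain, the R7 subfamily (Rgs6) works as a dimer with the beta subunit Gnb5, and the R12 subfamily (Rgs10 and Rgs14) ranges from a small to a multidomain protein. Rgs5 is known as a pericyte and arterial smooth muscle gene, Rgs6 as a brake on vagal slowing of the heart, and Rgs1 and Rgs18 as genes of leukocytes and platelets.

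Of the 10 genes, 6 lay on chromosome 13, which held 640 genes or 2.88% of the table. In the table's coordinates (Rnor_6.0), Rgs2, Rgs13, Rgs1, Rgs21 and Rgs18 followed each other on the minus strand, with gaps of 121, 62.4, 216 and 259 kb and 0 listed genes between any neighbours. Rgs5 (plus strand) and Rgs4 (minus strand) faced each other across 51.8 kb, and Rgs8 and Rgs16 were 38.8 kb apart, again with 0 listed genes between. The bases before the start sites of 5 of these genes are shown because this chromosome holds members that were higher and members that were lower in aged hearts. They are the 100 bases upstream of the start on the gene's own strand, 5′ to 3′, from RefSeq's promoter table (build GRCr8, a later build than that of the counts). Capitals mark the TATA box (TATAAA on the gene's strand) and the GC box (GGGCGG, or CCGCCC where it lies on the other strand).
Rgs2 (chr13:58352667-58352766, minus strand): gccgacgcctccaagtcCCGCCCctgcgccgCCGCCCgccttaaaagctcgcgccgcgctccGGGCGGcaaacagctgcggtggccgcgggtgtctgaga
Rgs1 (chr13:58573188-58573287, minus strand): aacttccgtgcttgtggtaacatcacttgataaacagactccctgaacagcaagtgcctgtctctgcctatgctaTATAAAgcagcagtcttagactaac
Rgs16 (chr13:68438020-68438119, plus strand): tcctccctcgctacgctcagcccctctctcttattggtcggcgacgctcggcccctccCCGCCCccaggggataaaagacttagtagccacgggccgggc
Rgs5 (chr13:84380977-84381076, plus strand): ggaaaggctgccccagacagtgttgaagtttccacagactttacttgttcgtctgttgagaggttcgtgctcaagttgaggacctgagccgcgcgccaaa
Rgs4 (chr13:84475885-84475984, minus strand): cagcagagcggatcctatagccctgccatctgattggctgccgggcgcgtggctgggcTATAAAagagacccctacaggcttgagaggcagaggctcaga

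All 10 genes matched an entry of that table, in which a window holds 250 bases before and 50 after the start. TATAAA stood on the gene's strand 25 bases before the start of Rgs1, 42 before that of Rgs4 and 184 before that of Rgs3, and on either strand it was in 14.2% of all 33469 windows. GGGCGG was found in 5 of the 10 windows (Rgs2, Rgs3, Rgs5, Rgs10 and Rgs16) and in 33.1% of all windows, and the match in Rgs5 lies upstream of the stretch printed. The cAMP response element TGACGTCA, the AP-1 site TGANTCA, the E-box CACGTG and the CArG box matched 0 of the 10 windows, against 1.83%, 7.33%, 6.42% and 1.64% of all. The NF-kB site matched 1 of the 10 windows, that of Rgs14, and 4.18% of all. Motifs were searched on both strands. Of the 10 windows, 8 were richer in G and C than the median window of 51.7%, and they ran from 39.7% in Rgs18 to 76.3% in Rgs10.

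Libraries held 21457509 to 24560869 reads on genes, and a count of 3, taken as the floor, corresponded to 0.122 to 0.140 CPM, that is, counts set to a common library size. CPM of single genes were further scaled by TMM, which sets the bulk of genes level between hearts. Across genes, 4436 of 13784 passed the limits used here, which take the fold changes and p that the study states (over 1.5 or less than 0.67, and 0.05) and read the p as unadjusted,, 1815 higher and 2621 lower in aged hearts, or 40.9% higher. With library totals in place of TMM scaling the calls were 3147 higher and 1440 lower (68.6% higher) and the median of all genes moved from 0.016 to 0.46 on the log2 scale. With totals that leave out the mitochondrial genome, 58.6% of calls were higher and the median was 0.30. The mitochondrial genome took 21.7%, 21.7% and 11.9% of reads in young 3, 13 and 15, and 6.56% to 10.3% in aged hearts. By edgeR's quasi-likelihood test, 0 genes had a Benjamini-Hochberg adjusted p under 0.05, against 4731 at an unadjusted p under 0.05 (0 adjusted by limma-voom and 3592 by DESeq2). An exact two-sided permutation test over 3 and 3 hearts reaches 0.1 at best, so none was used.

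Individual hearts stood apart from their group. Young 15 lay nearer to the aged mean than to the mean of young 3 and 13 in 9610 of the 13784 genes tested (69.7%). Aged 3 was all but without cardiomyocyte markers: 9 such genes summed to 109 CPM there, 4117 and 4724 CPM in the other two aged hearts, 7938 in young 15, and 53502 and 58500 in young 3 and 13. RGS values are therefore given heart by heart, with their fold changes also without young 15 and without aged 3. In bulk tissue, fewer cells of a type and less RNA per cell cannot be told apart. The labels number the animals, and the spread between them is the sole error measured here.

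**Figure D1:**
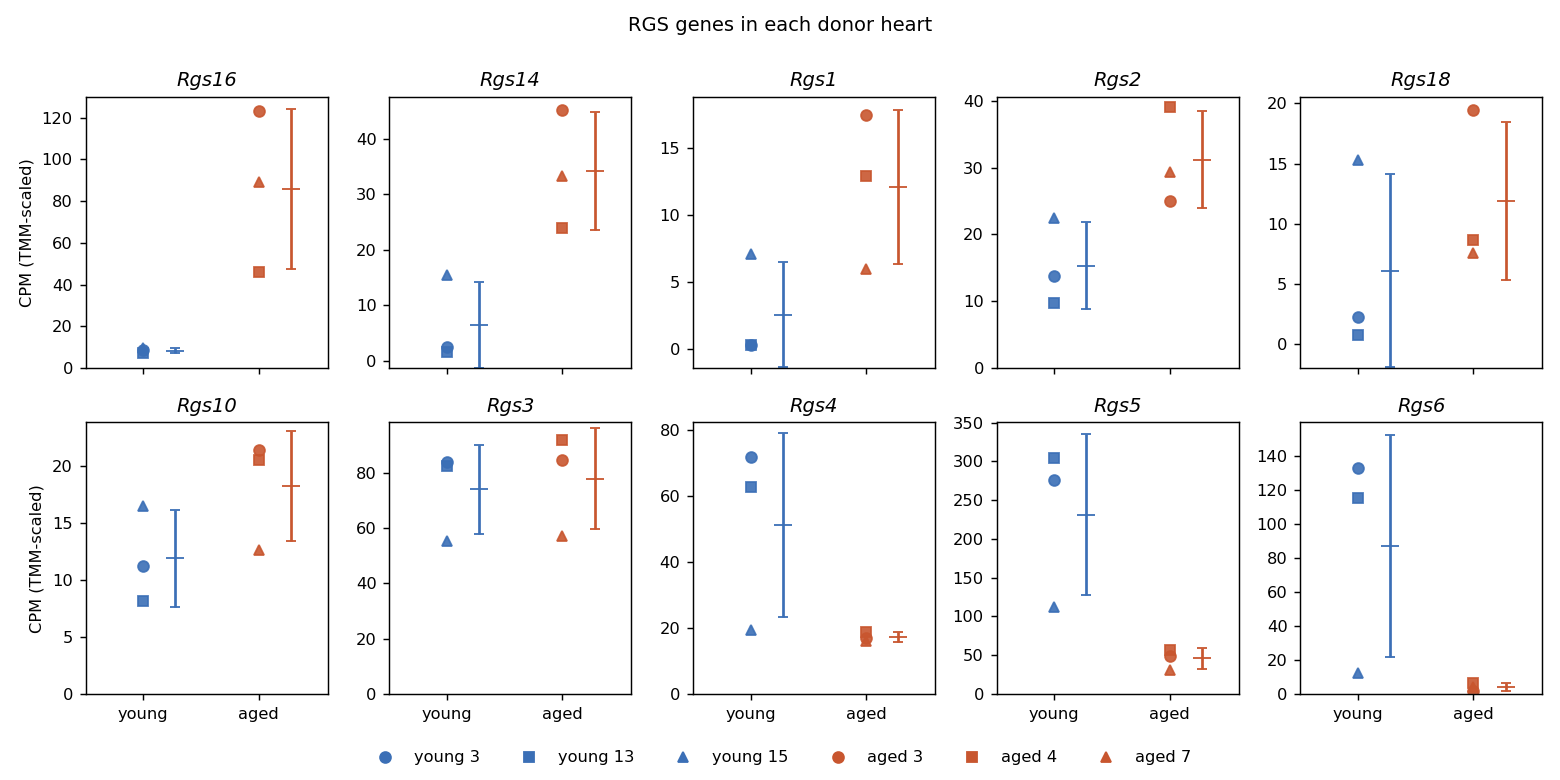
TMM-scaled CPM of the 10 RGS genes (1 panel a gene, each with its own linear y axis) in the 3 young and 3 aged donor hearts; points are hearts and the bar is the mean ± SD. Rgs4, Rgs5 and Rgs6 were lower and Rgs2, Rgs14 and Rgs16 higher in aged hearts with no overlap, and young 15 was nearer the aged mean than the mean of young 3 and 13 for 9 of the 10 genes, Rgs16 being the exception.

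Rgs16, Rgs14 and Rgs2 were higher in every aged heart than in every young heart, and Rgs5, Rgs6 and Rgs4 were lower. The groups thus did not overlap for 6 of the 10 genes, 3 in each direction, while they did not overlap for 41.6% of all tested genes (21.0% higher and 20.7% lower in aged hearts). The median log2 fold change of the 10 genes, aged minus young, was 0.78 against 0.016 over all tested genes, and 7 of the 10 were above 0. Since the list was chosen on this contrast, nothing is read from these counts.

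Rgs16 (ENSRNOG00000027024, chr13:71179910-71185216, plus strand), an R4 protein that acts on Gi and Gq and is known to be induced in activated leukocytes, had the highest log2 fold change of the 10 genes in the TMM-scaled edgeR fit with all hearts. Rgs1 was higher by limma-voom (3.45 against 3.22), and Rgs1 and Rgs14 were higher without young 15. It was at 8.47, 7.31 and 9.45 CPM in young 3, 13 and 15 and at 123, 46.1 and 89.0 CPM in aged 3, 4 and 7. The lowest aged heart was 2.28 log2 units above the highest young heart, and young 15 lay near the other young hearts here, while for the other 9 genes it was nearer the aged mean. The means were 8.41 ± 1.07 and 85.9 ± 38.3 CPM (SD, n = 3 each), 10.2 times as high in aged hearts, with a log2 fold change of 3.35 ± 0.39 (SE). The value was 3.48 without young 15 and 3.01 without aged 3.

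Rgs14 (ENSRNOG00000015616, chr17:9777842-9792007, minus strand), a scaffold of the R12 subfamily that also carries Ras- and Gi-binding domains, was at 2.48, 1.53 and 15.4 CPM in young 3, 13 and 15 and at 45.3, 23.9 and 33.3 CPM in aged 3, 4 and 7. Aged hearts were higher without overlap, and young 15 stood between the other young hearts and the aged ones. Means were 6.47 ± 7.75 and 34.2 ± 10.7 CPM (SD, n = 3 each) and the log2 fold change was 2.39 ± 0.88 (SE). It was 4.13 without young 15 and 2.14 without aged 3.

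Rgs2 (ENSRNOG00000003687, chr13:60846308-60849094, minus strand), which prefers Gq and is known for limiting vasoconstrictor signals in smooth muscle, was at 13.8, 9.72 and 22.5 CPM in young 3, 13 and 15 and at 25.0, 39.1 and 29.4 CPM in aged 3, 4 and 7. The groups did not overlap, but young 15 and aged 3 were 0.15 log2 units apart. Means were 15.3 ± 6.5 and 31.2 ± 7.21 CPM (SD, n = 3 each), and the log2 fold change was 1.02 ± 0.35 (SE), 1.44 without young 15 and 1.16 without aged 3.

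Rgs5 (ENSRNOG00000002730, chr13:87966758-88003035, plus strand), the pericyte and smooth muscle member of R4, was the most abundant of the 10 genes per length in each of the 6 hearts. In aged 7 its lead was small, at 37.3 CPM per kilobase against 36.1 for Rgs16. Rgs5 was at 276, 305 and 112 CPM in young 3, 13 and 15 and at 49.4, 57.2 and 30.5 CPM in aged 3, 4 and 7. All aged hearts lay below all young hearts, and young 15 was again the young heart nearest to them. The means were 231 ± 104 and 45.7 ± 13.7 CPM (SD, n = 3 each), 5.05 times as high in young hearts, and the log2 fold change was -2.34 ± 0.45 (SE). It was -2.63 without young 15, -2.39 without aged 3 and -1.79 with library totals, so that each of these alternatives kept it lower in aged hearts.

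Rgs6 (ENSRNOG00000008082, chr6:106496992-106602139, plus strand), the R7 protein that ends muscarinic signals to the atrial potassium channel, gave the largest difference of the 10 genes with all 6 hearts, while without young 15 that of Rgs1 was larger. It was at 133, 115 and 12.5 CPM in young 3, 13 and 15 and at 1.84, 6.48 and 4.21 CPM in aged 3, 4 and 7. Young 3 and 13 stood far above the remaining 4 hearts, and young 15 was still above each aged heart. Means were 86.9 ± 65.1 and 4.18 ± 2.32 CPM (SD, n = 3 each), 20.8 times as high in young hearts, with a log2 fold change of -4.38 ± 0.97 (SE), -4.86 without young 15 and -4.01 without aged 3.

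Rgs4 (ENSRNOG00000002773, chr13:88054817-88061108, minus strand), an R4 protein of heart muscle and smooth muscle that acts on Gi and Gq, was at 71.7, 62.6 and 19.4 CPM in young 3, 13 and 15 and at 17.0, 18.9 and 16.0 CPM in aged 3, 4 and 7. The aged hearts were close to one another, and young 15 was above the highest of them by just 0.034 log2 units. With library totals these hearts changed places, at 21.1 CPM in young 15 and 21.4 CPM in aged 4, so the groups then overlapped for Rgs4. Means were 51.2 ± 27.9 and 17.3 ± 1.48 CPM (SD, n = 3 each) and the log2 fold change was -1.56 ± 0.47 (SE), -1.92 without young 15 and -1.54 without aged 3.

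The other 4 genes overlapped between the groups. Rgs1 (ENSRNOG00000003895, chr13:61066153-61070599, minus strand), a leukocyte gene that limits chemokine responses, was at 0.302, 0.254 and 7.1 CPM in young 3, 13 and 15 (5, 4 and 172 reads) and at 17.5, 12.9 and 5.97 CPM in aged 3, 4 and 7. Its log2 fold change of 2.22 ± 1.23 (SE) was 1.86 without aged 3 and 5.45 without young 15, the latter resting on 5 and 4 reads in the remaining young hearts. Rgs18 (ENSRNOG00000003959, chr13:61565483-61591139, minus strand), a gene of platelets and myeloid cells, was at 2.24, 0.763 and 15.3 CPM in young hearts and at 19.5, 8.68 and 7.55 CPM in aged hearts. Young 15 was above 2 of the 3 aged hearts for Rgs18, and the log2 fold change of 0.95 ± 1.03 (SE) was 3.02 without young 15 and 0.40 without aged 3.

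Rgs10 (ENSRNOG00000042592, chr1:199782078-199823386, minus strand), the small R12 protein known from microglia and macrophages, was at 11.2, 8.13 and 16.5 CPM in young hearts and at 21.4, 20.5 and 12.6 CPM in aged hearts, with aged 7 below young 15. Its log2 fold change was 0.60 ± 0.35 (SE), 0.95 without young 15 and 0.47 without aged 3. Rgs3 (ENSRNOG00000024501, chr5:78428669-78567288, plus strand), which beside its RGS domain has forms that bind ephrin-B proteins, was at 84.1, 82.5 and 55.4 CPM in young hearts and at 84.8, 91.8 and 57.3 CPM in aged hearts. Each group of Rgs3 had 2 high hearts and 1 low heart, and its log2 fold change of 0.075 ± 0.26 (SE) went to -0.059 without young 15, to -0.051 without aged 4 and to 0.57 with library totals. With library totals Rgs3 took the place of Rgs4 among the 6 genes whose groups did not overlap.

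**Figure D2:**
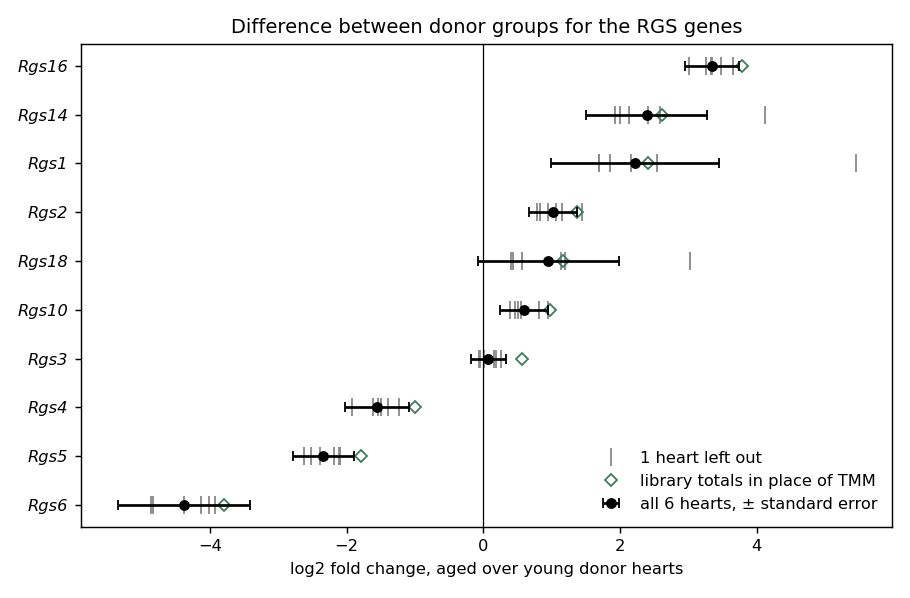
Log2 fold change, aged minus young, of the RGS genes tested: points with SE bars are TMM-scaled edgeR estimates, ticks are the fits without each heart in turn and diamonds use library totals. Rgs16 at 3.35 and Rgs6 at -4.38 stood at the ends, and the fits without 1 heart spread most for Rgs1, from 1.70 to 5.45.

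Levels of different genes were compared per kilobase of gene length. Within each heart, the share of each gene in the length-scaled reads of all 20 RGS genes does not depend on how hearts were scaled to each other. Rgs5 made up 74.7%, 80.2% and 50.9% of these reads in young 3, 13 and 15 and 20.2%, 27.0% and 17.6% in aged 3, 4 and 7. In each young heart it exceeded the other RGS genes together, and in each aged heart it did not. Rgs16 held 0.761%, 0.639% and 1.43% in young hearts and 16.7%, 7.22% and 17.0% in aged hearts. Rgs2 stood at 3.51%, 2.41% and 9.61% against 9.65%, 17.4% and 16.0%, so that young 15 and aged 3 were almost level.

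The shares of the other genes followed their subfamily only in part. Rgs6 held 5.15% and 4.30% in young 3 and 13, 0.812% in young 15, and at most 0.435% in an aged heart. Rgs4, the neighbour of Rgs5, held 5.44%, 4.62% and 2.47% in young hearts and 1.95%, 2.50% and 2.59% in aged hearts, which overlapped. The R4 genes together held 88.5%, 91.4% and 78.1% of the pool in young hearts and 67.1%, 68.9% and 65.1% in aged hearts. R12 was at 4.12%, 3.16% and 10.4% against 14.5%, 13.5% and 13.4%. Among the listed R4 genes, Rgs5 alone had a lower share in each aged heart than in each young heart. Rgs4 and Rgs18 overlapped, and Rgs1, Rgs2, Rgs3 and Rgs16 were higher. Shares add up to a fixed whole, so a lower share of Rgs5 raises those of other genes, R12 included. The pool itself, summed over the 20 genes as RPKM (here TMM-scaled CPM per kilobase), was 452, 465 and 269 in young hearts and 299, 259 and 212 in aged hearts, with young 15 below aged 3.

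**Figure D3:**
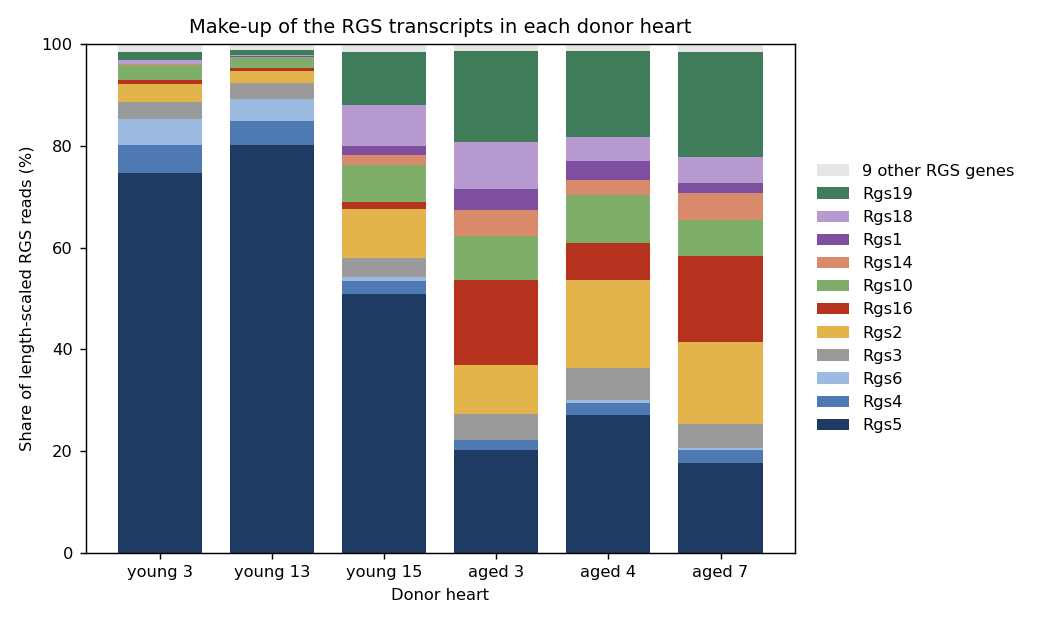
Share (percent) of each RGS gene in the length-scaled reads of all 20 RGS genes, 1 stacked bar a heart. Rgs5 took 74.7% and 80.2% of the pool in young 3 and 13, 50.9% in young 15 and 17.6% to 27.0% in aged hearts.

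Ratios of 2 RGS genes in the same heart are likewise free of the scaling. The per-length log2 ratio of Rgs16 to Rgs4, both R4 genes of Gi and Gq, was -2.83, -2.85 and -0.79 in young 3, 13 and 15 and 3.10, 1.53 and 2.71 in aged 3, 4 and 7. Rgs4 was thus the higher of the pair in each young heart and Rgs16 in each aged heart. The log2 ratio of Rgs2 to Rgs5 was -4.41, -5.05 and -2.40 in young hearts and -1.07, -0.64 and -0.14 in aged hearts, so Rgs5 remained the higher in all 6. For the adjacent Rgs4 and Rgs5 the log2 ratio was -3.78, -4.12 and -4.36 in young hearts and -3.37, -3.43 and -2.76 in aged hearts, a narrower range than for the other pairs given here.

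The 10 other RGS genes in the table were not on the list, and 4 of them passed the filter. Of these, 1 was past the limits and higher and 1 was past them and lower, against 32.2% of all tested genes past the limits (13.2% higher and 19.0% lower). Rgs19, the RZ protein also called GAIP that acts on Gi, was at 9.92, 5.78 and 36.1 CPM in young 3, 13 and 15 and at 68.5, 56.5 and 56.4 CPM in aged 3, 4 and 7. Its log2 fold change was 1.80 ± 0.66 (SE; edgeR unadjusted p = 0.0322, adjusted p = 0.120), and it held 16.9% to 20.6% of the RGS pool in aged hearts, the largest share of any RGS gene in aged 7. Rgs12, a large R12 protein, was at 27.3, 27.4 and 18.8 CPM in young hearts and at 17.3, 15.9 and 13.9 CPM in aged hearts, with a log2 fold change of -0.64 ± 0.22 (SE; edgeR unadjusted p = 0.0270, adjusted p = 0.113).

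Both calls were lost in some fits with 1 heart left out, and that of Rgs12 also with library totals. The fold changes kept their direction in these fits. The SE rose with fewer hearts, from 0.66 to between 0.74 and 0.80 for Rgs19 and from 0.22 to between 0.27 and 0.28 for Rgs12. A lost call is thus not to be read as a difference that rests on 1 heart. Rgs12 was at -0.15 with library totals and no longer past the limits, and it lost its call without young 3, young 13, aged 4 or aged 7 (-0.56, -0.55, -0.64 and -0.55). Rgs19 lost its call without young 3, aged 3, aged 4 or aged 7 (1.52, 1.71, 1.85 and 1.86). Rgs17 (0.17 ± 0.50) and Rgs22 (-0.70 ± 0.80, SE) were not past the limits. Rgs7, Rgs8, Rgs9, Rgs13, Rgs20 and Rgs21 did not pass the filter. Rgs7, the neuronal relative of Rgs6, had 37 and 15 reads in young 3 and 13 and 0 in the other 4 hearts. At 3 reads, a count of 0 there allows up to 0.122 to 0.135 CPM before TMM scaling.

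The genes that RGS proteins work with were taken as 5 lists, to be read against the 32.2% of all tested genes past the limits (13.2% higher and 19.0% lower), a share that was 51.1% without young 15 and 22.2% without aged 3. Among partners and other RGS-box proteins, 2 of 15 tested genes were past the limits and higher, 3 were lower and 10 were not past them, or 33.3% past the limits, close to the share of all genes, and the median log2 fold change was -0.30. Without young 15 the counts were 4 and 4, and without aged 3 they were 1 and 2. Gnb5, the obligate partner of Rgs6, was at 17.6, 16.1 and 9.49 CPM in young 3, 13 and 15 and at 5.61, 7.69 and 5.44 CPM in aged 3, 4 and 7, a log2 fold change of -1.20 ± 0.31 (SE; edgeR unadjusted p = 0.0076, adjusted p = 0.0916), -1.40 without young 15 and -1.12 without aged 3. Every aged heart was below every young heart, as for Rgs6. Axin2 (-1.37), a scaffold of Wnt signalling with an RGS box, and Arhgef12 (-0.59) were also lower, and the receptor kinases Grk2 (0.72) and Grk6 (0.86), which mark active receptors for arrestin, were higher. Arhgef12 and Grk6 were not past the limits without aged 3.

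Among alpha subunits, the direct substrates of RGS proteins, 3 of 13 tested genes were past the limits and higher, 2 were lower and 8 were not past them, with a median of 0.68. That is 38.5% past the limits, against 32.2% of all genes. Of 14 tested without young 15 the counts were 6 and 3, and of 14 tested without aged 3 they were 0 and 2. Gnao1, which encodes Go, was at 27.3, 45.4 and 34.9 CPM in young hearts and at 4.04, 10.8 and 8.31 CPM in aged hearts, with a log2 fold change of -2.22 ± 0.41 (SE; edgeR adjusted p = 0.0916). Here young 15 lay among the young hearts and the groups did not overlap, and the value was -2.20 without young 15 and -1.90 without aged 3. Gnai3 (0.87) and Gna13 (0.68) were higher, as was the low-count Gnat1 (2.08), and none of these 3 was past the limits without aged 3. Gnas, which encodes Gs, had 2 entries in the table. The entry with 37458 reads was at -0.88 ± 0.25 and past the limits, and the entry with 528 reads was at -0.31 ± 0.29 (SE) and not, so its value is uncertain to the extent that reads were split between them.

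Among beta and gamma subunits, 4 of 12 tested genes were past the limits and higher (Gng10 at 1.53, Gng2 at 0.89, Gngt2 at 0.80 and Gng8 at 2.20) and 2 were lower (Gnb3 at -3.62 and Gng7 at -1.55), with 6 not past them and a median of 0.57. That is 6 of 12 past the limits, and the counts were 8 and 2 without young 15 and 3 and 2 without aged 3, where Gng2 was not past them. Gnb3 was at 183, 196 and 14.6 CPM in young 3, 13 and 15 and at 1.67, 13.1 and 17.3 CPM in aged 3, 4 and 7, so the groups overlapped and its fold change rests on young 3 and 13. Of 18 tested receptors that signal through Gi or Gq, 4 were higher, 6 were lower and 8 were not past the limits, and the median was 0.023. That is 55.6% past the limits, against 32.2% of all genes. The counts were 4 and 6 without young 15 and 3 and 7 without aged 3. The adrenergic Adra1b (-3.22 ± 1.12) and Adra1a (-2.63 ± 0.84, SE), which act through Gq on heart muscle and vessels, were lower. Adra1a was at 25.3, 39.0 and 18.7 CPM in young hearts and at 0.591, 7.69 and 5.17 CPM in aged hearts, and its log2 fold change was -2.81 without young 15 and -2.10 without aged 3. The endothelin receptors were past the limits in opposite directions, with Ednra, the form of muscle, at -1.28 ± 0.34 and Ednrb, the form of endothelium, at 1.44 ± 0.37 (SE). Lpar1 (-0.67) was lower, and the nucleotide receptors P2ry2 (1.32) and P2ry6 (2.12) and the neuropeptide Y receptor Npy1r (1.90) were higher, the last not past the limits without aged 3, at 0.93.

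Of 18 tested effectors, 3 were past the limits and higher, 7 were lower and 8 were not past them, with a median of -0.44. That is 55.6% past the limits, against 32.2% of all genes (13.2% higher and 19.0% lower). The counts were 6 and 8 without young 15 and 2 and 7 without aged 3, where Adcy7 was not past the limits. The main adenylyl cyclases of heart muscle, Adcy5 (-2.09 ± 0.62) and Adcy6 (-1.95 ± 0.43, SE), were lower, as were the phospholipase Plcb4 (-1.67) and the kinase Prkca (-0.77). The cyclases Adcy4 (0.83) and Adcy7 (1.37) and the phospholipase Plcb3 (0.85) were higher. Across these 5 lists no gene had an adjusted p under 0.05 by edgeR's test, and the smallest over all genes was 0.0916.

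**Figure D4:**
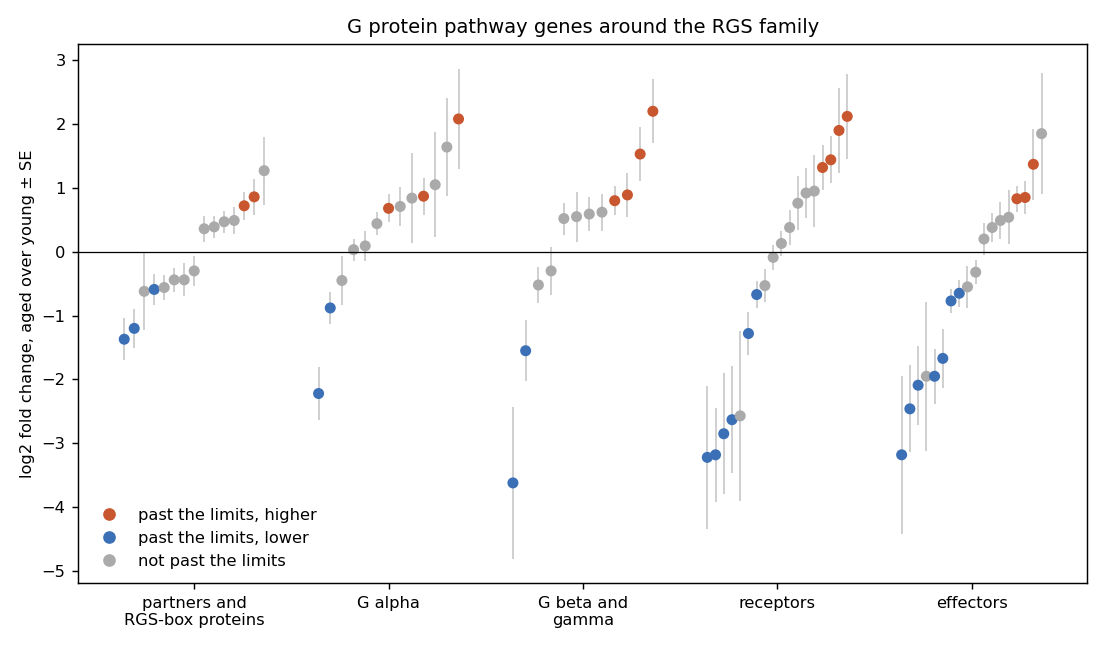
Log2 fold change, aged minus young, of the tested genes of 5 lists (RGS partners and RGS-box proteins, G alpha, G beta and gamma, receptors and effectors); each point with its SE bar is a gene, coloured by whether it was past the fold and p limits. Points past the limits lay on both sides of 0 in each list, from Gnb3 at -3.62, whose groups overlapped, to Gng8 at 2.20.

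Markers of the cell types that are known to use RGS genes differed between the hearts. The lists are given by their score, the mean log2 CPM of the tested genes, or by their summed CPM. Counts past the limits are to be read against 32.2% of all tested genes, 51.1% without young 15 and 22.2% without aged 3. The 9 mural and smooth muscle markers scored 6.48, 6.72 and 6.38 in young 3, 13 and 15 and 6.27, 6.55 and 6.12 in aged 3, 4 and 7. These ranges overlapped, and 1 of the 9 was past the limits, the potassium channel subunit Abcc9 at -1.99 ± 0.46 (SE), with a list median of 0.087 and summed levels of 1026 to 1495 CPM in young and 943 to 1089 CPM in aged hearts. Rgs5 minus this score was 1.63, 1.54 and 0.43 log2 units in young hearts and -0.64, -0.70 and -1.18 in aged hearts, so Rgs5 was also lower relative to the mean of the mural markers, without overlap. Against single markers the same held for 7 of the 9 and the groups overlapped for Abcc9 and Cnn1. Since the mural score overlapped between the groups and Rgs5 itself did not, these differences largely restate that of Rgs5. Rgs5 minus Abcc9 was -0.75, -0.79 and -0.94 in young hearts and -0.22, -1.07 and -2.03 in aged hearts. Rgs4 minus the same score was -0.32, -0.75 and -2.09 in young hearts and -2.17, -2.30 and -2.11 in aged hearts, with young 15 level with the aged hearts. Rgs2 minus the score was -2.69, -3.42 and -1.88 in young hearts and -1.62, -1.25 and -1.24 in aged hearts. The part of mural cells in the Rgs2, Rgs4 and Rgs5 differences was not tested.

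The 9 cardiomyocyte markers scored 11.66, 11.78 and 9.30 in young hearts and 2.98, 8.49 and 8.21 in aged hearts. Of the 9, 3 (Myh6, Pln and Myl2) were past the limits and lower (5 without young 15, 8 without aged 3), 0 were higher, and the list median was -3.18. That is 33.3% past the limits, all lower, against 32.2% of all tested genes (19.0% lower). The shares were 55.6% against 51.1% without young 15 and 88.9% against 22.2% without aged 3. Rgs6 minus this score was -4.59, -4.94 and -5.64 in young 3, 13 and 15 and -2.03, -5.77 and -6.10 in aged 3, 4 and 7. Outside aged 3, where the markers were nearly lost, the 5 values of Rgs6 spanned -6.10 to -4.59, a far narrower range than its levels. Among these 5, aged 4 and aged 7 were still below every young heart, so the overlap of the groups came from aged 3 alone. Rgs4 minus the cardiomyocyte score was -5.49, -5.81 and -5.01 in young hearts and 1.11, -4.24 and -4.19 in aged hearts. Relative to these markers Rgs4 was thus higher in every aged heart, although its level was lower. The part of the cardiomyocyte markers in the Rgs4 and Rgs6 differences was not tested.

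Neutrophil and macrophage markers had higher summed levels in aged hearts than in young 3 and 13, with young 15 in between. All 8 neutrophil markers were past the limits and higher, with a median of 3.93 and summed levels of 7.92, 8.64 and 154 CPM in young hearts and 1601, 390 and 821 CPM in aged hearts. Without aged 3, 3 of the 8 were past them. Over all tested genes, 13.2% were past the limits and higher, 26.9% without young 15 and 7.47% without aged 3. Of 8 macrophage markers 4 were past them and higher and 0 lower, with a median of 1.65, and the sum was 267, 249 and 897 CPM in young hearts and 2260, 1432 and 927 CPM in aged hearts (8 past them without young 15, 2 without aged 3). Rgs1 minus the macrophage score was -5.99, -6.04 and -3.29 in young 3, 13 and 15 and -3.32, -3.19 and -3.75 in aged 3, 4 and 7, so that young 15 was level with the aged hearts. The values of young 3 and 13 rest on 5 and 4 reads of Rgs1 and lean in part on the prior count of 2. Rgs14 minus the macrophage score was -3.27, -3.80 and -2.18 against -1.95, -2.30 and -1.29, and Rgs10 minus it was -1.13, -1.44 and -2.08 against -3.03, -2.53 and -2.68. Rgs10 was thus lower relative to these markers in aged hearts although its level was not.

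Rgs16 did not follow the neutrophil and macrophage markers of young 15. Its level minus the neutrophil score was 3.29, 2.90 and -0.57 in young 3, 13 and 15 and -0.26, 0.43 and 0.30 in aged 3, 4 and 7, and minus the macrophage score it was -1.53, -1.60 and -2.88 against -0.52, -1.36 and 0.13. Young 15, with neutrophil and macrophage sums above the other young hearts, thus held the lowest Rgs16 relative to either list. Rgs14 minus the neutrophil score was 1.55, 0.70 and 0.12 against -1.70, -0.51 and -1.12. In young 3 and 13 the 8 neutrophil markers had 131 and 136 reads together. Their scores there, and the differences from them, thus lean in part on the prior count of 2. The part of leukocytes in the Rgs1, Rgs10, Rgs14, Rgs16 and Rgs18 values was not tested.

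Of 8 platelet and megakaryocyte markers, 4 passed the filter, 2 of them past the limits and higher (Pf4 at 2.81 and Itgb3 at 1.82), with a median of 1.16. The other 2, at 0.51 and 0.21, were not past the limits and overlapped between the groups. A higher score of this list thus leans on Pf4 and Itgb3. Over all tested genes, 32.2% were past the limits (13.2% higher and 19.0% lower). Gp1bb had 0 reads in every heart, and Ppbp, Gp9 and Gp6 did not pass the filter. The platelet score was 1.61, 1.70 and 1.83 in young hearts and 3.73, 2.56 and 2.81 in aged hearts, with sums of 15.3 to 33.0 and 63.7 to 158 CPM. Rgs18 minus it was -0.39, -1.93 and 2.11 in young hearts and 0.56, 0.57 and 0.12 in aged hearts, with young 15 the highest of the 6. Of 7 tested lymphocyte markers 1 was past the limits and higher, Cd2 at 2.50, with a list median of 0.53 and sums of 4.50 to 11.0 CPM in young and 11.2 to 20.3 CPM in aged hearts. The lowest of this list was at -0.58. The lymphocyte score overlapped, at 0.29, 0.13 and -0.87 in young hearts and 1.06, -0.036 and 0.19 in aged hearts. Of 6 endothelial markers 0 were past the limits (median -0.22, sums 1448 to 1983 and 1404 to 1983 CPM), and of 5 fibroblast markers 1 was, Col1a1 at -1.61, though not without young 15 or without aged 3 (median -0.46, sums 2518 to 3817 and 937 to 2139 CPM).

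**Figure D5:**
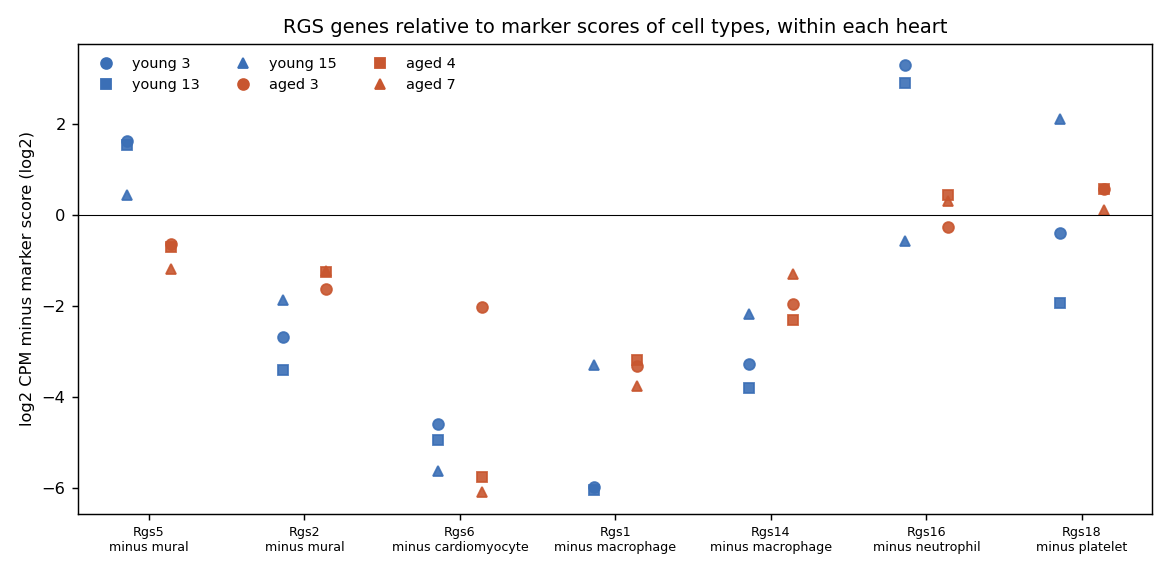
Log2 CPM of RGS genes minus the score (mean log2 CPM) of a marker list in the same heart; points are the 3 young and 3 aged hearts. Rgs5 relative to mural markers was 0.43 to 1.63 in young hearts and -1.18 to -0.64 in aged hearts. Rgs6 relative to cardiomyocyte markers overlapped between the groups through aged 3 alone, at -2.03.

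The 10 genes fell into a few profiles over the 6 hearts. By the root mean square difference of their log2 CPM, each centred on the gene's own mean, the nearest pairs were Rgs2 and Rgs10 (0.377), the chromosomal neighbours Rgs4 and Rgs5 (0.526), Rgs3 and Rgs10 (0.552) and Rgs1 and Rgs14 (0.706), and the farthest was Rgs1 and Rgs6 (4.57). Rgs1 and Rgs2, which lie on the same stretch of chromosome 13 with Rgs13 between them, differed by 1.73. Young 15 had a log2 CPM above the mean of young 3 and 13 by 4.31 in Rgs1, 3.46 in Rgs18 and 2.93 in Rgs14, and below it in Rgs6, Rgs4 and Rgs5 (-3.29, -1.78 and -1.37), against 0.26 in Rgs16.

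The tested genes nearest to each RGS gene by the same measure give these profiles names, as a description over 6 hearts. Nearest to Rgs1 were LOC24906 (0.231), the calcium-activated potassium channel gene Kcnn4 (0.266) and the macrophage marker Cd68 (0.298). Those nearest to Rgs14 were Arhgap30 (0.172), LOC691141 (0.174) and the transcription factor gene Batf (0.179), and for Rgs16 they were Bhlhe22 (0.216), Lrg1 (0.238), which encodes a secreted glycoprotein, and LOC100909879 (0.261). Cemip (0.233), Pkib (0.287) and Tnn (0.310) were nearest to Rgs18. For Rgs6 they were Aspdh (0.289), the heart muscle transcription factor gene Klf15 (0.291) and the carbonic anhydrase gene Ca14 (0.324).

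Rgs5 was nearest to Tmem44 (0.151), Itgbl1 (0.179) and Bcam (0.187), and Rgs4 to Dctn6 (0.0864), Mul1 (0.0973) and Ltbp4 (0.0976). Rgs2 lay near Ppp1r3e (0.120) and the ribosomal protein gene Rps20 (0.124). Rgs3 lay by Efnb1 (0.0956), Ap1b1 (0.111) and Card10 (0.113), and Rgs10 by AABR07030903.1 (0.0827), Adat1 (0.101) and the G protein beta subunit Gnb4 (0.110). Genes with small differences between hearts have more near neighbours by this measure than genes with large ones. Some neighbours had few reads, with mean CPM of 1.17 for Bhlhe22, 0.477 for LOC100909879, 1.54 for Pkib, 1.33 for Aspdh and 1.52 for Ppp1r3e. At such levels the prior count of 2 draws the log2 values of hearts together.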

How the data were processed

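The authors deposited 1 table of the series, with raw read counts and FPKM values of each gene in each of the 6 hearts, and all of its per-heart columns belong to these hearts. The counts are raw as deposited. The authors' FPKM values equal the count divided by gene length and library total in all but 1 of 133500 values (tolerance 0.1%). They therefore order genes within a heart as RPKM does. The submitters' processing notes name HISAT2 2.0.5, featureCounts 1.5.0-p3, StringTie 1.3.3b, DESeq2 1.16.1, GATK 3.7 and the build Rnor_6.0. The annotation release and the use of strand are not given in the sources used here.

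Counts were analysed with edgeR 4.0.16 in R 4.3.3: filterByExpr by donor group, TMM scaling, and the quasi-likelihood F test (glmQLFTest) on donor group alone. Standard errors were taken as the log2 fold change over the square root of F. Log2 CPM used a prior count of 2. Adjusted p-values are Benjamini-Hochberg values over all 13784 tested genes. limma 3.58.1 (voom), DESeq2 1.42.0, other scalings and filters, and leaving out each heart were alternatives. RPKM was the TMM-scaled CPM per kilobase.

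The RGS genes and the gene lists were chosen with earlier results of these data known. Besides the RGS genes, text names up to 4 genes past the limits per direction of each pathway list by mean CPM, up to 2 of each marker list, and the 3 nearest profiles, of which 1 is not reported here. Myh6, Pln and Myl2 are 3 of 1 list and were named for completeness after their values were seen. Gnas had 2 entries; the one with more reads over the 6 hearts was counted, a choice made after the values were seen, and it adds 1 lower call to the alpha subunit list. Rgs11, Axin1, Pecam1 and Col1a2 were not analysed here. GRCr8 promoter coordinates were not joined with those of the counts. The floor of 3 counts covers counting error only.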

Additional observations from a re-analysis of the deposited data

How the results depend on the processing

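The log2 fold changes of the 10 RGS genes kept their direction in 128 of 130 alternatives, and both exceptions were Rgs3. In 4 of the 130 the value moved by more than the spread between replicates, and these were Rgs1, Rgs14 and Rgs18 without young 15 (5.45, 4.13 and 3.02) and Rgs3 with library totals (0.57). Requiring an adjusted p under 0.05 left 0 of the 4436 genes past the limits. Leaving out 1 heart at a time gave 2432 to 7214 genes past the limits, the most without young 15, 6119 to 10326 genes whose groups did not overlap, 33 to 79 genes of the pathway and marker lists past the limits (56 with all hearts), 0 to 3 of the other RGS genes (2 with all hearts) and 6 to 7 RGS genes with a log2 fold change above 0. Fewer hearts alone make non-overlap more common. With library totals, and with totals leaving out the mitochondrial genome, 1 of the other RGS genes was past the limits, since Rgs12 was then at -0.15 and -0.32. Rgs5 had the highest level of the 10 genes in 6 of 6 hearts by the deposited FPKM values too. This is no separate check, since FPKM and RPKM use the same counts and lengths and order genes alike within a heart. No paired analysis was possible because the animal numbers count within a group and the groups share 1 number alone.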
